A study of Mus musculus with 7 samples.

Results

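The genes described here are those through which brown fat takes fatty acids out of the blood: lipoprotein lipase (Lpl), its partners Gpihbp1, Lmf1 and Angptl4, the lipoprotein receptor Vldlr, the membrane proteins Cd36, Slc27a1 and Slc27a4, and the fatty acid binding proteins Fabp4 and Fabp5. They were chosen by name and function and not by any measured value, although earlier results of these data were known. They make up 10 of the 53715 gene identifiers counted. All 10 passed the filter on low counts and were among the 15123 genes tested. RNA was taken from the interscapular brown fat of males of the C57BL/6J strain at 10 weeks of age. Wild-type animals (WT, 3 libraries) were compared with mice lacking PGAM5 (KO, 3 libraries), a phosphatase of mitochondria; each library is labelled as 1 individual, and KO replicate 4 was not analysed here. The sources used here do not say how the knockout allele was made or in which cells it acts.

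Brown adipocytes burn fatty acids to make heat, and much of that fuel arrives in triglyceride-rich lipoproteins. Lipoprotein lipase is made by the adipocyte, folded with the help of LMF1 and carried by GPIHBP1 across the capillary wall, where it cuts triglyceride, and ANGPTL4 inactivates it. The freed fatty acids enter the cell with the help of CD36 and the transport proteins of the SLC27 family, and are carried inside the cell by FABP4 and FABP5.

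Sequencing depth lay between 18034204 and 33617762 counts per library, so that 3 counts, the limit that a count of 0 allows, correspond to 0.0892 to 0.166 CPM (counts scaled to a common library size). Pgam5 had 167, 122 and 186 counts in the WT libraries and 1, 3 and 11 in the KO libraries, the direction the labels give. On the opposite strand, Gm15788 overlaps the span of Pgam5 but 0 of its exon bases, and had 166 counts in all. Gm26718, also on the opposite strand, overlaps 1378 exon bases of Pgam5 and had 0 counts. Pgam5 was lower in KO by the edgeR quasi-likelihood test (log2 fold change -4.84, SE 0.59, adjusted p = 0.0243). That call was lost without WT replicate 1 (adjusted p = 0.0581), WT replicate 3 (0.0545), KO replicate 1 (0.0812) or KO replicate 2 (0.165), although the log2 fold change stayed at or below -4.35. WT replicate 2 and KO replicate 3 stood apart at opposite ends of the first principal component of all genes (-65 and 66.8, the others between -13 and 8.23), which held 45.6% of the variance. They also had the highest and the lowest share of counts from the mitochondrial genome, 43.0% and 19.7%. This pair of libraries was singled out in these same data. A difference between the groups that follows the first component therefore becomes smaller by that choice when both are left out, as is done below. Ucp1, which marks brown adipocytes, ran from 1638 to 2853 CPM in WT and from 3765 to 5974 CPM in KO libraries (edgeR adjusted p = 0.31, DESeq2 adjusted p = 0.00922). Of the 6 markers of white fat listed, Hoxc9, Hoxc10 and Wt1 had 0 counts. Lep, Retn and Nnat were present, at mean levels of 30.2, 21.5 and 20.3 CPM over all libraries.

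None of the 10 genes passed the threshold of the edgeR test, a Benjamini-Hochberg adjusted p of 0.05 over all genes tested, against 0.0595% of all genes (9 of 15123). The adjusted p of the 10 genes lay between 0.388 and 0.93. DESeq2 called 1.12% of the genes to which it gave an adjusted p (167 of 14891), and none of these 10. At an unadjusted p under 0.05 stood 2 of the 10, Lmf1 and Slc27a1, beside 11.8% of all genes. The log2 fold changes, KO minus WT, were positive for 5 and negative for 5, with a median of 0.0966 against -0.00191 over all genes. That median was -0.0131 without KO replicate 3 and 0.0263 without WT replicate 2, so its sign turned on 1 library. For Lmf1, Slc27a1 and Fabp5, 3 of 10, the lowest KO library exceeded the highest WT library, beside 10.1% of all genes, and the reverse was seen for 0 of 10, beside 9.39% of all genes.

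A gene that did not pass is not thereby shown to be equal in both groups, so the interval of each difference is given. The 95% interval lay within a 2-fold change in either direction for 9 of the 10 genes. The exception was Lpl, whose interval ran from a fold of 0.85 to 2.02. In whole tissue, fewer cells of a type and less RNA per cell cannot be told apart.

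**Figure D1:**
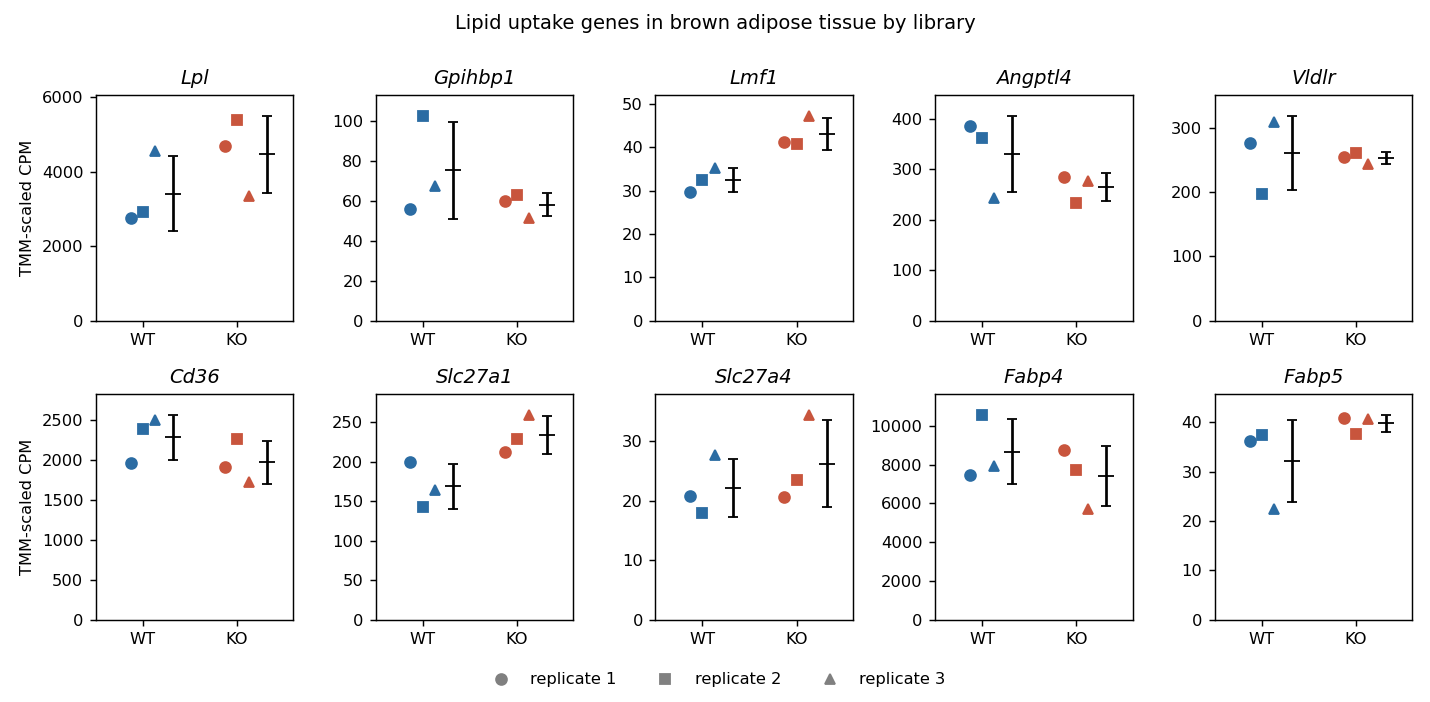
Level of each of the 10 genes in TMM-scaled CPM (vertical axes from 0, each gene on its own scale) in 3 WT and 3 KO libraries; points are libraries, marked by replicate, and black bars are the mean ± SD of a group. The groups do not overlap for Lmf1, Slc27a1 and Fabp5 and overlap for the other 7 genes.

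Lpl itself was among the most abundant messages of the tissue. Its level was 2751, 2913 and 4567 CPM in WT replicates 1, 2 and 3 and 4685, 5384 and 3350 CPM in KO replicates 1, 2 and 3. WT replicate 3 lay with the KO libraries and KO replicate 3 with the WT libraries, so that the groups overlapped. The group means were 3411 ± 1005 and 4473 ± 1034 CPM (SD, n = 3 each), with a log2 fold change, KO minus WT, of 0.39 by edgeR (SE 0.28, adjusted p = 0.56). Leaving out 1 library at a time moved this value between 0.24 and 0.66, the highest without WT replicate 3. The gene lies at chr8:68880491-68907448 on the plus strand (mm10).

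Gpihbp1, which anchors lipoprotein lipase to the capillary endothelium, lies at chr15:75596628-75599481. Its level was 55.6, 102.5 and 67.1 CPM in WT replicates 1 to 3 and 59.6, 63.0 and 51.5 CPM in KO replicates 1 to 3. WT replicate 2 was far above the other 5 libraries, among which the groups overlapped. On the log2 scale KO minus WT was -0.37 (SE 0.23, edgeR adjusted p = 0.513). It was -0.08 without WT replicate 2, and 0.000584 without WT replicate 2 and KO replicate 3.

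Since Gpihbp1 is an endothelial gene, its level was also set against 12 endothelial markers. All 12 had a positive log2 fold change (median 0.32), and 0 passed; without WT replicate 2 and KO replicate 3 the number positive was 7 and the median 0.08. Their summed level was 533, 411 and 620 CPM in WT replicates 1 to 3 and 498, 675 and 838 CPM in KO replicates 1 to 3, lowest in WT replicate 2, where Gpihbp1 was highest, and highest in KO replicate 3, where Gpihbp1 was lowest. Cdh5, the cadherin of endothelial junctions, was at 94.3 ± 34.3 CPM in WT and 158 ± 70.1 in KO, and Pecam1, a second adhesion protein of endothelium, at 103 ± 16.6 and 110 ± 23.7 (edgeR adjusted p = 0.434 and 0.871). Relative to the mean log2 CPM of the markers in the same library, Gpihbp1 was at 1.30 ± 0.71 in WT and 0.60 ± 0.47 in KO on the log2 scale, a difference of -0.69 (exact two-sided permutation test, p = 0.3), with overlapping groups. Without WT replicate 2 and KO replicate 3 that difference was -0.04. The part of endothelial cell content in the level of Gpihbp1 was not tested.

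Lmf1, the protein of the endoplasmic reticulum that lets the lipase fold into its active dimer, lies at chr17:25579085-25662826. Its level was 29.8, 32.5 and 35.2 CPM in WT replicates 1 to 3 and 41.3, 40.8 and 47.4 CPM in KO replicates 1 to 3. The highest WT library lay below the lowest KO library. The group means were 32.5 ± 2.69 and 43.2 ± 3.64 CPM (SD, n = 3 each), a log2 fold change of 0.41 (SE 0.15; 95% interval 0.06 to 0.75) with an edgeR adjusted p of 0.388 and an unadjusted p of 0.0248. The value stayed between 0.34 and 0.47 under every alternative fit and every library left out. Lmf2, its relative, ran from 21.1 to 29.2 CPM in WT and from 26.3 to 32.1 CPM in KO, with overlap (log2 fold change 0.23, edgeR adjusted p = 0.591, and 0.05 without WT replicate 2 and KO replicate 3), and was named after its values were seen.

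Lmf1 and Slc27a1 were the 2 members whose 95% intervals excluded 0, both on the positive side, and their promoters are printed for that reason (RefSeq, GRCm38.p6, from 250 bases before to 50 after the annotated start, 5′ to 3′ on the gene's strand). Capitals mark matches on either strand to a CCAAT box (CCAAT), a GC box (GGGCGG), the nuclear receptor motif AGGTCA, the TATA box TATAAA or the E-box CACGTG.
Lmf1, chr17:25578924-25579223, plus strand: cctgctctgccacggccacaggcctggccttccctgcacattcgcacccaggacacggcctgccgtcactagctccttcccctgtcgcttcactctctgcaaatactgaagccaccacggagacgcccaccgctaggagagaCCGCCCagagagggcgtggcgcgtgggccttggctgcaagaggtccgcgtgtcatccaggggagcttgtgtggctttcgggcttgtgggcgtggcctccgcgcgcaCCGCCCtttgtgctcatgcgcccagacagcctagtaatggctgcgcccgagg
Slc27a1, first of 3 annotated starts, chr8:71568621-71568920, plus strand: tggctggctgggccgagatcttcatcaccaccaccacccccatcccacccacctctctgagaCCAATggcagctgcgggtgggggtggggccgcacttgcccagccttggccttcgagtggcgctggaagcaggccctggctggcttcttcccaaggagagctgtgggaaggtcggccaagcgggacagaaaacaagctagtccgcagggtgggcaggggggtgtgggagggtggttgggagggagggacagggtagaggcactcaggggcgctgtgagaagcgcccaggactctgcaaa

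Lmf1 had a GC box on the opposite strand at -108 and -2 from the start, and this first start of Slc27a1 a CCAAT box at -188, so the 2 printed promoters shared none of these motifs. The other 2 annotated starts of Slc27a1 did have GC boxes, at -139 from one and at -159, -48 and -17 from the other. A GC box was found in 35.7% and a CCAAT box in 37.4% of all 32851 promoters in the table. The sequence was GC-rich in both, 66.3% for Lmf1 and 65.7% for this start of Slc27a1 (60.7% and 56.3% at its other starts), against a median of 52.7%. AGGTCA is the core of the element that peroxisome proliferator-activated receptors bind as a repeat with 1 base between, AGGTCANAGGTCA. The single motif, which 16.3% of all promoters held, was found in the promoter of Cd36 (on the opposite strand at -228) and in none of the other promoters listed for Lmf1, Slc27a1, Slc27a4 and Vldlr, and the repeat, held by 0.0396% of all promoters, in none of the 5 genes. Lpl, Gpihbp1, Angptl4, Fabp4 and Fabp5 had no entry.

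Angptl4, a secreted inhibitor that unfolds lipoprotein lipase, lies at chr17:33773750-33781830. Its level was 386, 362 and 244 CPM in WT replicates 1 to 3 and 286, 234 and 277 CPM in KO replicates 1 to 3. WT replicates 1 and 2 were above every KO library, and WT replicate 3 lay among them. Its log2 fold change was -0.32 (SE 0.21, 95% interval -0.80 to 0.16, edgeR adjusted p = 0.539), and -0.50 without WT replicate 3. Ddr1, a collagen receptor gene that passed the threshold, lies 1.91 Mb away. Angptl8, a secreted protein made by fat and liver, was at 17.2 ± 5.34 CPM in WT and 16.8 ± 2.76 in KO (log2 fold change -0.04, edgeR adjusted p = 0.96, and -0.38 without WT replicate 2 and KO replicate 3); it was named after its values were seen.

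Vldlr, the very low density lipoprotein receptor, lies at chr19:27216484-27254231. Its level was 277, 197 and 310 CPM in WT replicates 1 to 3 and 254.5, 261 and 244 CPM in KO replicates 1 to 3. The KO libraries all lay inside the range of the WT libraries. KO minus WT was -0.05 on the log2 scale (95% interval -0.50 to 0.40, SE 0.20, edgeR adjusted p = 0.93); it was -0.22 without WT replicate 2 and 0.09 without WT replicate 3, so that its sign turned on 1 library. Without WT replicate 2 and KO replicate 3 it was -0.18.

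Cd36, the scavenger receptor that binds long-chain fatty acids at the cell surface, lies at chr5:17781690-17888801. Its level was 1965, 2388 and 2503 CPM in WT replicates 1 to 3 and 1919, 2262 and 1730 CPM in KO replicates 1 to 3, with overlapping groups. The log2 fold change was -0.21 (SE 0.21, 95% interval -0.69 to 0.26, edgeR adjusted p = 0.668), and -0.09 without WT replicate 2 and KO replicate 3. Cd36 and Pgam5 are both on chromosome 5 but 92477 kb apart, and Ccng2, the nearest gene past the threshold, lies 75.5 Mb from Cd36.

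Slc27a1 (FATP1), a fatty acid transporter of adipocytes and muscle that also activates fatty acids, lies at chr8:71568882-71587302. Its level was 199.9, 143 and 164 CPM in WT replicates 1 to 3 and 212, 229 and 259.7 CPM in KO replicates 1 to 3. Every KO library was above every WT library, with WT replicate 1 closest to the KO group. The group means were 169 ± 28.7 and 234 ± 24.0 CPM (SD, n = 3 each), a log2 fold change of 0.47 (SE 0.19; 95% interval 0.05 to 0.89), the largest in size of the 10 genes, with an edgeR adjusted p of 0.405 and an unadjusted p of 0.0331. WT replicate 2 was the lowest and KO replicate 3 the highest library for this gene, and the value was 0.28 without both. Stretches of 101 to 167 bases in its transcript matched transcripts of 22 other genes at 95% identity or more, so that some reads may be shared with them. The nearest gene past the threshold, Rnf150, lies 11.3 Mb away on the same chromosome.

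Slc27a4 (FATP4), a member of the same family found in many tissues, lies at chr2:29802634-29817522. Its level was 20.8, 18.0 and 27.6 CPM in WT replicates 1 to 3 and 20.7, 23.5 and 34.5 CPM in KO replicates 1 to 3, with overlapping groups. Its log2 fold change was 0.24 (SE 0.24, 95% interval -0.29 to 0.77, edgeR adjusted p = 0.67), and -0.01 without KO replicate 3 and -0.13 without WT replicate 2 as well. The coding sequences of Slc27a1 and Slc27a4 were identical at 66.2% of aligned bases. Per kilobase of transcript, Slc27a1 was the higher by 12.1-fold (8.63 to 14.9 by library).

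Fabp4 (aP2), the main fatty acid carrier in the cytoplasm of adipocytes, lies at chr3:10204088-10208576. Its level was 7473, 10568 and 7945 CPM in WT replicates 1 to 3 and 8764, 7728 and 5714 CPM in KO replicates 1 to 3. The highest library was WT replicate 2 and the lowest KO replicate 3, and the other 4 were intermingled. The log2 fold change was -0.23 (SE 0.26, 95% interval -0.80 to 0.35, edgeR adjusted p = 0.715), and 0.0995 without WT replicate 2 and KO replicate 3. Fabp4 alone took 0.617% to 0.883% of all counts in a library, and the 10 genes together 1.27% to 1.78%.

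Fabp5, the second fatty acid binding protein of fat, also made in endothelium and skin, lies at chr3:10012548-10016607, 191.5 kb from Fabp4. Its level was 36.3, 37.4 and 22.5 CPM in WT replicates 1 to 3 and 40.9, 37.7 and 40.7 CPM in KO replicates 1 to 3. WT replicate 3 lay far below the other 5 libraries, which were within a few CPM of each other, and the groups did not overlap by a narrow margin. The log2 fold change was 0.31 (SE 0.21, edgeR adjusted p = 0.531), and 0.11 without WT replicate 3.

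Reads of Fabp5 can also be counted at a near-identical copy, the processed pseudogene Gm6166 at chr9:57483963-57484371. The last 225 coding bases of Fabp5 and the matching bases of the annotated Gm6166 transcript (GENCODE M21) are printed, 5′ to 3′, because the reads of one can be taken for the other. Capitals mark the bases that differ.
Fabp5: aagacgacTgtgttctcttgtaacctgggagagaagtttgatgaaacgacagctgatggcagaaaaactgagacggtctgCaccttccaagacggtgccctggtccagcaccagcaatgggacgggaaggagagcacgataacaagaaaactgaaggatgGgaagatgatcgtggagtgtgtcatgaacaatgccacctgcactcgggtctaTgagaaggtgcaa
Gm6166: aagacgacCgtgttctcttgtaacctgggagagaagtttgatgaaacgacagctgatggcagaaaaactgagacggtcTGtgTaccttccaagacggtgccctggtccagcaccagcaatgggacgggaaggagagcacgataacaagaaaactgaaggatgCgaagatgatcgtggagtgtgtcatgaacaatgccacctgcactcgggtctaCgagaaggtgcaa

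Over the 405 coding bases of Fabp5, counted from the start codon, Gm6166 carried 5 substitutions (T9C, T189C, C261T, G341C and T393C) and an insertion of 2 bases, with an identical run of 179 bases. Gm6166 had 3, 172 and 342 counts in WT replicates 1 to 3 and 1, 12 and 21 in KO replicates 1 to 3, against 899, 561 and 766 for Fabp5 in the WT libraries and 899, 879 and 833 in the KO libraries. The copy was thus high in WT replicate 3, where Fabp5 was lowest, and in WT replicate 2 (log2 fold change of Gm6166 -3.77, SE 1.21, edgeR adjusted p = 0.363). With the counts of both loci added, the level was 36.4, 48.9 and 32.6 CPM in WT replicates 1 to 3 and 40.9, 38.2 and 41.7 CPM in KO replicates 1 to 3. The groups then overlapped, and the log2 fold change was 0.04 in place of 0.31 (SE 0.18, edgeR adjusted p = 0.939; an alternative chosen after seeing the data). A second copy, Gm14328, had 13 counts in all, and 8 of the 10 genes had no such copy.

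**Figure D2:**
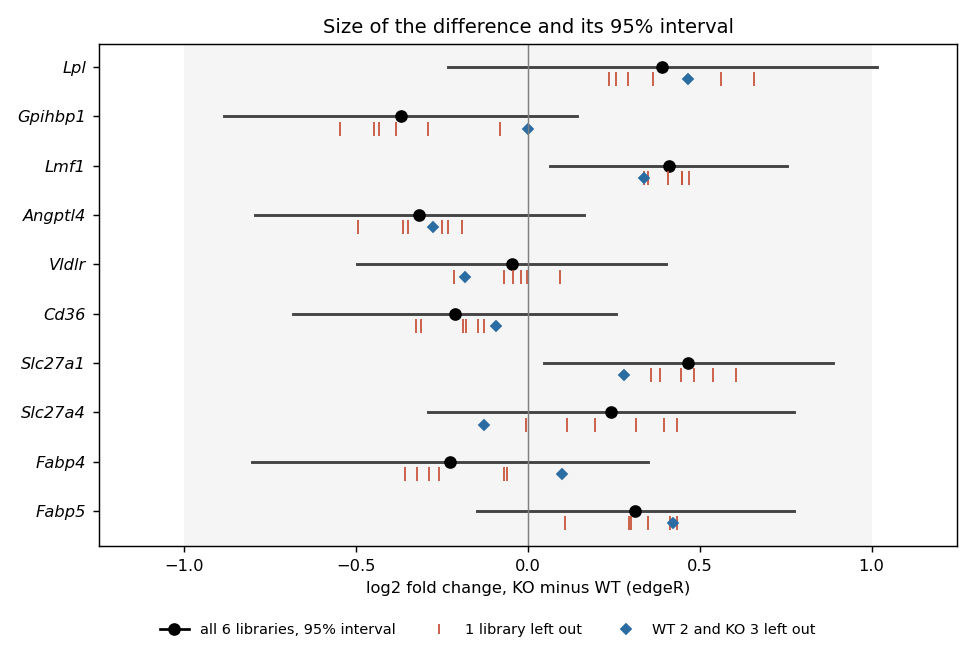
Log2 fold change of each gene, KO minus WT, from the edgeR fit of all genes (horizontal axis; black point with its 95% interval), with the value after 1 library was left out (red ticks) and after WT replicate 2 and KO replicate 3 were left out (blue diamonds); grey shading spans a 2-fold change either way. Only the intervals of Lmf1 and Slc27a1 exclude 0, and only that of Lpl passes the edge of the shading.

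Levels of different genes were compared as CPM per kilobase of the principal transcript, over all 6 libraries. Fabp4 led at 8964 CPM per kb (6377 to 11794), followed by Lpl at 958 (669 to 1308) and Cd36 at 626 (509 to 736). These 3 genes stood above the rest: the next, Angptl4, was at 90.1 (70.6 to 117), below Cd36 by 6.95-fold. Gpihbp1 (80.7), Slc27a1 (72.0), Fabp5 (36.4), Vldlr (32.3), Lmf1 (20.4) and Slc27a4 (5.96) followed.

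Some neighbours in this order did not differ beyond their spread. Angptl4 was above Gpihbp1 in 3 of 6 libraries and Gpihbp1 above Slc27a1 in 2 of 6, so these 3 have no order. Fabp5 was above Vldlr in 5 of 6 libraries, an order that another measure of length reversed. Lpl was above Cd36, and Vldlr above Lmf1, in 6 of 6, although their ranges overlapped. Lengths weigh in: over the union of all annotated exons Lpl ranked behind Cd36, Fabp5 behind Vldlr, Slc27a1 ahead of Gpihbp1, and Lmf1 last, behind Slc27a4. Between the paired carriers, Fabp4 was 246-fold above Fabp5 (155 to 388 by library), with coding sequences identical at 60.6% of aligned bases.

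**Figure D3:**
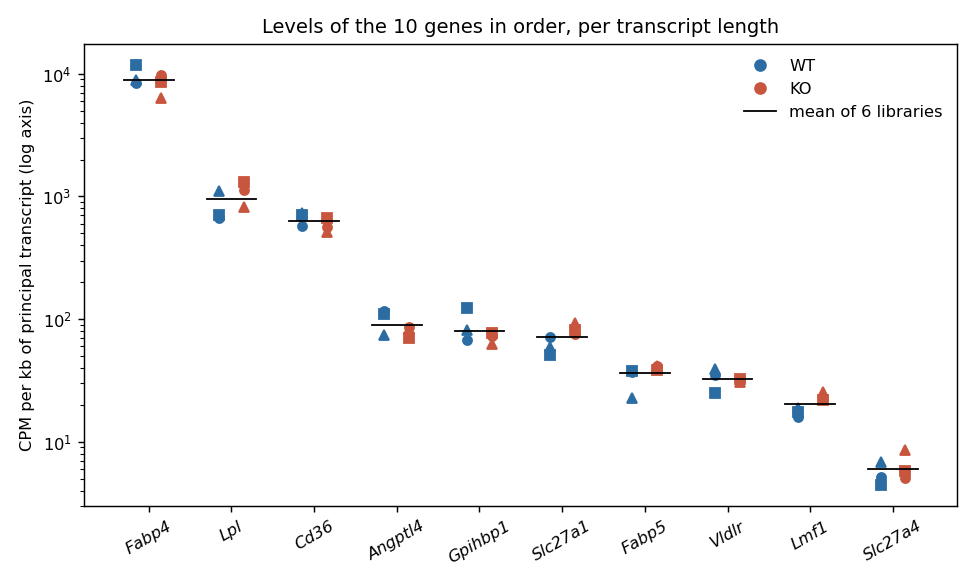
Level of the 10 genes in CPM per kb of principal transcript (logarithmic vertical axis), in order of the mean of 6 libraries (black bars); points are libraries, WT in blue and KO in red. Fabp4, Lpl and Cd36 stand above the other 7 genes, and the ranges of Angptl4, Gpihbp1 and Slc27a1 overlap.

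Ratios within a library show unequal change of a pair of genes and do not depend on scaling. With 3 libraries against 3 the exact test cannot go below p = 0.1, so none of the 6 ratios tested could pass. Gpihbp1 to Lpl was -5.51 ± 0.64 in WT and -6.24 ± 0.20 in KO on the log2 scale (difference -0.73, exact two-sided permutation p = 0.2, adjusted over the 6 ratios 0.45). Angptl4 to Lpl was -3.36 ± 0.76 in WT and -4.05 ± 0.47 in KO (difference -0.70, exact permutation p = 0.3, adjusted 0.45). In both ratios WT replicate 3 lay inside the range of the KO libraries. With 1 library left out the difference ran from -1.02 (without WT replicate 3) to -0.388 (without WT replicate 2) for Gpihbp1 to Lpl, and from -1.13 (without WT replicate 3) to -0.435 (without WT replicate 1) for Angptl4 to Lpl.

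Lmf1 to Lpl was equal in its means, -6.67 ± 0.30 and -6.67 ± 0.47 (exact permutation p = 1.0). Fabp5 to Fabp4 was -8.09 ± 0.39 in WT and -7.51 ± 0.34 in KO (difference 0.58, exact permutation p = 0.2, adjusted 0.45), with the counts of Gm6166 left out, and ran from 0.38 (without KO replicate 3) to 0.78 (without WT replicate 1). Slc27a4 to Slc27a1 differed by -0.24 (exact permutation p = 0.4, adjusted 0.48), and by -0.06 without WT replicate 3. The groups overlapped in all 6 ratios.

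The spread among the 3 libraries of a group was smaller in KO than in WT for 6 of the 10 genes by coefficient of variation (Gpihbp1 10.2% against 32.6%, Fabp5 4.46% against 25.8%). It was larger in KO for Lmf1, Cd36, Fabp4 and Slc27a4 (Slc27a4 27.7% against 22.3%). This is described without a test and without the share over all genes, which was not counted. Of the 10 genes, 7 had their highest or lowest value in WT replicate 2 or KO replicate 3. The share over all genes was not counted, so this number is no result about the 10 genes.

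The other genes of the pathway were counted in 5 lists, and 0 genes of any list passed the edgeR test, while DESeq2 called 1 gene of the 5 lists, Apln. KO lay above WT without overlap for 1 of 19, 3 of 11, 0 of 17, 3 of 13 and 3 of 19 tested genes, in the order of the lists below. KO lay below WT without overlap for 0, 0, 2, 0 and 1 of them. Over all genes these shares were 10.1% and 9.39%. Of 20 cofactors, processing factors and inhibitors of lipoprotein lipase, 19 were tested, with 9 positive and a median log2 fold change of -0.03, which was 0.19 with 12 positive without WT replicate 3. Apoe, the apolipoprotein that remnant receptors recognise, was at 1360 ± 448 CPM in WT and 1082 ± 315 in KO, and Apoc1, an apolipoprotein that slows lipid clearance, at 206.5 ± 16.9 and 258 ± 27.9. Every KO library of Apoc1 was above every WT library (log2 fold change 0.32, SE 0.17, edgeR adjusted p = 0.468). Hspg2, the heparan sulfate proteoglycan perlecan of the basement membrane, had the smallest p of the list (151.6 ± 57.8 against 330 ± 182 CPM, log2 fold change 1.123, SE 0.40, edgeR adjusted p = 0.375). It was highest in KO replicate 3 and lowest in WT replicate 2, and the value was 0.59 without the first and 0.34 without both. Apoc2, the activator of the lipase, had 0 counts; another annotated gene on the same strand covers 79.5% of its exon bases, so reads there may not have been counted.

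Of 14 lipoprotein receptors and related lipases, 11 were tested, with 8 positive and a median of 0.38, which was 0.02 without WT replicate 2 and KO replicate 3. Lipa, the acid lipase of lysosomes, was at 104, 74.0 and 84.9 CPM in WT replicates 1 to 3 and 125, 116 and 198 CPM in KO replicates 1 to 3, without overlap (log2 fold change 0.73, SE 0.24, edgeR adjusted p = 0.37). The value was 0.45 without KO replicate 3 and 0.35 without WT replicate 2 as well. Scarb1, the receptor for high density lipoprotein, was at 43.6 ± 7.21 CPM in WT and 58.6 ± 4.60 in KO, also without overlap (edgeR adjusted p = 0.405). Lrp1, the remnant receptor, was at 215 ± 79.9 and 291 ± 81.5 CPM with overlap (log2 fold change 0.43, and -0.07 without WT replicate 2 and KO replicate 3).

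Of 21 other genes of fatty acid binding, transport and activation, 17 were tested, with 7 positive and a median of -0.26, which was -0.06 without WT replicate 2 and KO replicate 3. Acsl1, the main acyl-CoA synthetase of adipocytes, was at 1776 ± 501 CPM in WT and 2053 ± 248 in KO, Dbi, an acyl-CoA binding protein, at 1119 ± 324 and 1171 ± 163, and Cav1, the scaffold of caveolae, at 769.7 ± 73.3 and 641 ± 109. Cav2, the partner of Cav1, was at 280.5, 364 and 247 CPM in WT replicates 1 to 3 and 206.5, 218 and 122 CPM in KO replicates 1 to 3. All its KO libraries lay below all its WT libraries (log2 fold change -0.71, SE 0.25, edgeR adjusted p = 0.375, and -0.31 without WT replicate 2 and KO replicate 3). Separate groups were also seen for Slc27a2, another member of the transporter family (263 ± 17.0 against 208 ± 23.3 CPM, log2 fold change -0.34, edgeR adjusted p = 0.454, and -0.20 without those libraries), which was named after its values were seen.

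Of 13 signals by which adipocytes and endothelium govern fatty acid transport, all 13 were tested, with 8 positive and a median of 0.20, which ran from 0.101 (without WT replicate 2) to 0.429 (without WT replicate 3) with 1 library left out. Vegfb, which acts on endothelial fatty acid uptake, was at 190 ± 41.0 CPM in WT and 179 ± 22.3 in KO, Vegfa at 707 ± 65.7 and 639 ± 105, and Nrp1, a coreceptor for both, at 184 ± 40.3 and 212 ± 25.5. Apln, a secreted peptide that acts on blood vessels, was at 0.970, 2.60 and 0.530 CPM in WT replicates 1 to 3 and 5.69, 4.94 and 4.64 CPM in KO replicates 1 to 3, without overlap (log2 fold change 1.97, SE 0.51, edgeR adjusted p = 0.31). DESeq2 called it, with an adjusted p of 0.0122, and edgeR called it without WT replicate 2 and KO replicate 3 (0.0413). Its receptor Aplnr, named after its values were seen, was at 18.2 ± 8.79 CPM in WT and 35.6 ± 3.78 in KO, again without overlap (log2 fold change 0.96, SE 0.31, edgeR adjusted p = 0.37, and 0.58 without those libraries).

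Of 19 regulators of these genes, all 19 were tested, with 15 positive and a median of 0.29, which was 0.10 with 11 positive without WT replicate 2 and KO replicate 3. Pparg, the nuclear receptor at the centre of adipocyte identity, was one of the 4 negative ones. Its level was 289, 264 and 298 CPM in WT replicates 1 to 3 and 248, 238 and 217 CPM in KO replicates 1 to 3, with all KO libraries below all WT libraries (log2 fold change -0.28, SE 0.17, edgeR adjusted p = 0.503); it was named after its values were seen. Esrra, a nuclear receptor of mitochondrial genes, was at 71.5 ± 14.1 CPM in WT and 119 ± 20.02 in KO without overlap (log2 fold change 0.74, SE 0.20, edgeR adjusted p = 0.323). Epas1, a hypoxia-inducible factor, was at 381 ± 87.6 and 595 ± 218 CPM without overlap (log2 fold change 0.64, and 0.13 without WT replicate 2 and KO replicate 3). Cebpa and Mlxipl, transcription factors of adipocytes and of glucose-driven lipid synthesis, were at 377 ± 162 and 518 ± 183 CPM and at 292 ± 84.5 and 305 ± 54.3 CPM, each with overlap.

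**Figure D4:**
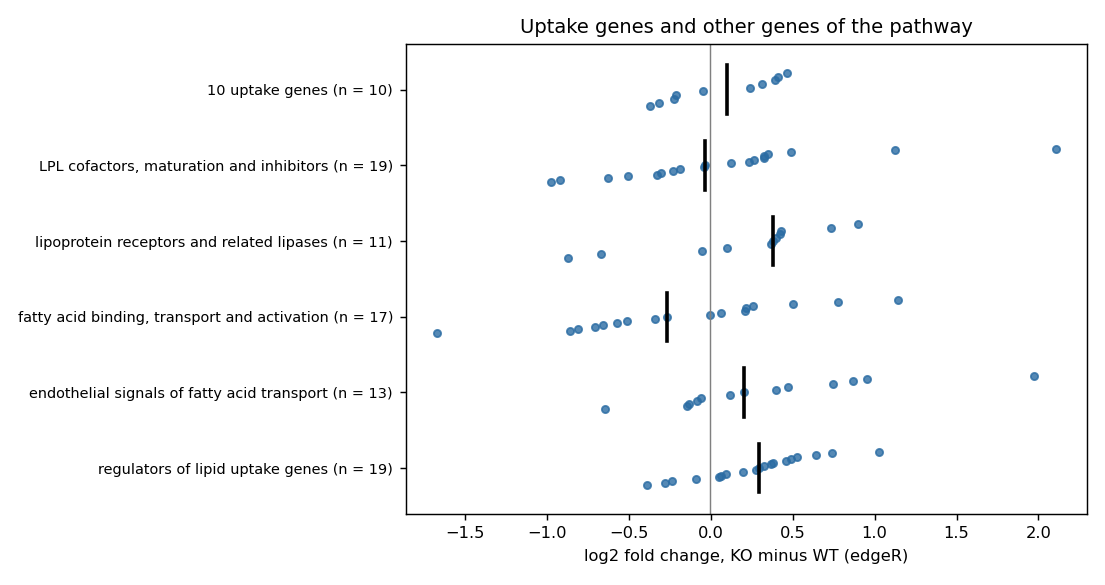
Log2 fold change, KO minus WT, from the edgeR fit (horizontal axis) of each tested gene among the 10 uptake genes and in the 5 lists of other pathway genes, 1 point a gene; black bars are list medians and the grey line is the median of all genes. The 10 uptake genes span a narrower range than any of the 5 lists, and their median of 0.0966 lies beside those of lists that run from -0.26 to 0.38. The lists hold more tested genes (11 to 19) and reach lower levels (Lsr 0.559 CPM, against 24.2 for Slc27a4), so the ranges are not like for like.

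Markers of other cell types in the pad were counted in the same fit, and 0 of them passed, while DESeq2 called Ucp1, Elovl3 and the pericyte marker Cspg4. Elovl3 was named for that call. Of the 8 adipocyte markers 6 were positive (median 0.21, and 0.07 without WT replicate 2 and KO replicate 3), among them Pnpla2, the lipase that starts the release of stored fat, at 2539 ± 309 CPM in WT and 2864 ± 316 in KO, and Cfd, the secreted adipsin, at 1106 ± 228 and 1183 ± 408. Of the 10 brown adipocyte markers 4 were positive (median -0.04) and, without WT replicate 2 and KO replicate 3, 9 (median 0.18). Cidea, a lipid droplet protein among them, ran from 1376 to 2010 CPM in WT and from 1446 to 1876 CPM in KO. Of the 8 pericyte and smooth muscle markers 7 were positive (median 0.60, and 0.30 without those libraries), with Rgs5 at 346 ± 94.6 and 302 ± 34.1 CPM and Cspg4 at 31.6 ± 11.2 and 78.8 ± 39.0 CPM.

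Fibroblast markers had 5 of 8 positive (Col3a1 171 ± 28.0 and 208 ± 37.2 CPM, Dcn 177 ± 1.62 and 149.5 ± 40.6 CPM), and macrophage markers 4 of 10, against 8 of 10 without WT replicate 2 and KO replicate 3 and 1 of 10 without WT replicate 1 (Lyz2 59.1 ± 22.1 and 48.8 ± 18.2 CPM, Mrc1 12.9 ± 1.95 and 10.5 ± 2.31 CPM). Of the 6 markers of white fat 3 were tested and 0 were positive, against 2 of 3 without WT replicate 2 and KO replicate 3, with Lep at 37.0 ± 20.9 and 23.4 ± 16.2 CPM and Retn at 21.8 ± 1.87 and 21.3 ± 4.41 CPM. Skeletal muscle makes Lpl, Cd36 and Slc27a1 as well. Within the groups, WT replicate 3 and KO replicate 2 were the highest libraries for Lpl and Cd36. For Slc27a1 the highest were WT replicate 1 (199.9 CPM) and KO replicate 3 (259.7 CPM). The summed level of the muscle markers was 8.12, 9.80 and 45.1 CPM in WT replicates 1 to 3 and 1.96, 38.0 and 3.52 CPM in KO replicates 1 to 3, highest in WT replicate 3 and KO replicate 2. Of these, Myh4 was at 5.12 ± 5.80 and 4.34 ± 6.73 CPM and Acta1 at 5.11 ± 4.94 and 3.23 ± 4.53 CPM. Erythrocyte markers had 0 of 5 positive, with Hbb-bs at 424 ± 105 and 321 ± 61.5 CPM and Hba-a1 at 206 ± 13.5 and 164 ± 34.2 CPM. The part of any of these cell types in the levels of the uptake genes was not tested.

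Over the 6 libraries, the genes most like Lpl were those with the smallest root mean square difference of centred log2 CPM among 9814 genes: Abcg2 (0.11), Prodh (0.117), Sirpa (0.127), Cidec (0.136) and Abhd5 (0.138), against a median of 0.444. Among the 5 genes most like Angptl4 were Zeb2 (0.0642), Gpn3 (0.0667), Phf7 (0.0688) and Alas2 (0.0716), against a median of 0.368. The edgeR adjusted p of the genes named lay between 0.413 and 0.797. None of the other 9 uptake genes was among the 5 most like Lpl, and none among those most like Angptl4. Cidec is also one of the adipocyte markers and Alas2 one of the erythrocyte markers counted above. These are descriptions over 6 points that share their libraries and their scaling.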

How the data were processed

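Libraries of poly(A) RNA were prepared with a stranded kit, per the labels' protocols. The deposited table holds raw counts, made by the authors with HISAT2 2.1.0 and featureCounts 1.6.2 on mm10, per the submitters' processing notes. The sources used here do not give the annotation release, the strand setting or the treatment of reads with several matches. Names, positions and transcripts came from GENCODE M21.

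The filterByExpr filter (10 counts, total of 15) left 15123 genes with 99.9% of counts. KO was compared with WT by edgeR 4.0.16 (quasi-likelihood test, TMM scaling, R 4.3.3), with Benjamini-Hochberg adjustment over all tested genes at 0.05. The script was tested on simulated data. CPM uses TMM library sizes, with a prior count of 2 on the log2 scale, and SE and 95% intervals come from the quasi-likelihood fit. DESeq2 1.42.0, limma 3.58.1 and other filters, scalings and left-out libraries were alternatives. Copies were found with BLAST+ 2.17.0 (95% identity over 100 bases or more). Totals were 18034204 to 33617762 counts, and the 3-count floors cover counting error only. No batch is labelled.

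The members and lists were chosen with earlier results of these data known. Named were all 10 members and Pgam5; of each pathway list the called genes, or, where 0 were called, the 3 most abundant by mean CPM and the 1 of smallest p; of each marker list the 2 most abundant; and the 5 genes most like Lpl and Angptl4 among those with a mean of 5 CPM or more. Genes outside this rule that were named after their values were seen are marked so. Apoc2, Elovl3, Nnat, Hoxc9, Hoxc10, Wt1 and the neighbouring, overlapping and copy genes are also outside this rule. A result that the rule selects is not reported here. The planned comparison included KO replicate 4, which was not analysed here.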

Additional observations from a re-analysis of the deposited data

How the results depend on the processing

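None of the 10 genes passed under any of the 16 alternatives, nor did Fabp5 under the added one (lowest adjusted p of any, 0.324), and 6 of the 10 kept the sign of their log2 fold change throughout. The sign turned for Gpihbp1 (0.000584), Fabp4 (0.0995) and Slc27a4 (-0.128) without WT replicate 2 and KO replicate 3, for Slc27a4 without KO replicate 3 (-0.00519), and for Vldlr without WT replicate 3 (0.0918). The difference in the ratio of Lmf1 to Lpl, 0.00583 in all libraries, was -0.165 without WT replicate 3, -0.257 without KO replicate 3 and -0.162 without WT replicate 2 and KO replicate 3. Over all genes, the count past the threshold was 9 in edgeR, 167 with DESeq2, 21 with voom and sample quality weights, 663 without a filter, 4 at an adjusted p of 0.01 and 27 without WT replicate 2 and KO replicate 3. Without a filter, 2, 2, 3, 3 and 2 genes of the 5 pathway lists passed, in the order given above. In that fit the median total degrees of freedom were infinite, so the spread of single genes did not enter its p-values. With 1 library left out, Gpihbp1 ran from -0.547 to -0.0825, Fabp4 from -0.359 to -0.0598, Slc27a4 from -0.00519 to 0.433, Vldlr from -0.215 to 0.0918, and the ratio of Lmf1 to Lpl from -0.257 to 0.193, and the count over all genes from 0 (without KO replicate 2, with 1482 genes at an unadjusted p under 0.05) to 17 (without WT replicate 2). The causes were not tested. With the replicate number as a block the count was 5. Whether the numbers pair the libraries is not labelled. Deviations of same-numbered libraries from their group means correlated across genes at -0.114, 0.102 and 0.0909, and WT replicate 2 correlated best with KO replicate 1 (0.249). The deviations within a group of 3 sum to 0, so these correlations depend on each other and cannot exclude pairing. The call of Pgam5 was also lost under limma-voom (adjusted p = 0.0531) and under the block (0.0655). With 3 libraries a group and totals of 18034204 counts or more, the parts of depth and of spread between libraries in the width of the intervals were not tested.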

Other observations

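Several pathway genes known from liver and intestine, Fabp1, Apoa4, Apoa5 and Slc27a5, were read at low levels, and all were lowest in KO replicate 3. Fabp1 was at 8.32, 16.2 and 9.42 CPM in WT replicates 1 to 3 and 8.60, 10.5 and 0.147 CPM in KO replicates 1 to 3. Apoa4 shared its highest and lowest library, at 5.25, 9.94 and 6.50 CPM in WT and 4.46, 6.35 and 0.0977 CPM in KO, where the last value is under the limit that a count of 0 allows. Sorl1, a sorting receptor that binds lipoprotein lipase, stood out the opposite way, at 15.9, 4.74 and 7.09 CPM in WT replicates 1 to 3 and 8.55, 13.9 and 98.3 CPM in KO replicates 1 to 3. These genes were named after their values were seen. The differences did not pass in edgeR with the filter on low counts (adjusted p = 0.683 for Fabp1, 0.604 for Apoa4 and 0.401 for Sorl1). Sorl1 did pass in the edgeR fit without a filter (adjusted p = 7.59e-18). The log2 fold change of Sorl1 was 2.11 in all libraries and -0.02 without WT replicate 2 and KO replicate 3.

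Fabp3, the heart-type fatty acid binding protein, was the most variable of the abundant carriers and was named after its values were seen. Its level was 336.5, 1490 and 410 CPM in WT replicates 1 to 3 and 643, 382 and 209 CPM in KO replicates 1 to 3, highest in WT replicate 2 and lowest in KO replicate 3, as Fabp4 was (edgeR log2 fold change -0.86, SE 0.57, adjusted p = 0.533), and 0.46 without those libraries.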
